A study of Rattus norvegicus with 4 samples.

Results

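The genes described here are 10 genes best known from immune cells, and they were followed in libraries of PC12 cells, a line derived from a rat pheochromocytoma, a tumour of the adrenal medulla. They are Gzmb, Mpeg1, Cd14, Tlr2, Tlr4, Coro1a, Ptprc, Cd68, Cd4 and Lyz2, found by name among the 25810 genes of the count files. Gzmb, Mpeg1, Cd14 and Coro1a were selected on their counts, because these differed between the clones in these same libraries, so their clone difference is a description and carries no test. Ptprc, Cd68, Cd4 and Lyz2 were taken as checks for leukocytes, and Tlr2 and Tlr4 as receptors that work with Cd14. RNA-Seq was made from 2 libraries of wtPC12, labelled as wild type cells with low REST, and from 2 libraries of hrPC12, labelled as high REST cells. REST is a transcriptional repressor of neuronal genes. Low and high REST are thus each seen in 1 clone, hrPC12 expresses REST spontaneously, and the labels name no agent for either, so the level of REST cannot be told apart from whatever else separates the clones. The labels do not say whether the libraries of a clone came from separate cultures, and the spread between them may therefore be technical.

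Cells of the innate immune system recognise microbial products with Toll-like receptors. Cd14 is a surface protein without a cytoplasmic signalling domain that hands lipopolysaccharide to the complex of Tlr4 and Ly96, and it also assists Tlr2. Cytotoxic lymphocytes kill with granules that hold perforin (Prf1), a pore-forming protein, and granzymes, serine proteases of which granzyme B (Gzmb) cleaves caspases once it has reached the cytosol of the target. Mpeg1 codes for perforin-2, a pore-forming protein of macrophages that acts on engulfed bacteria. Coro1a codes for coronin 1A, an actin-binding protein of leukocytes that is also present in neurons. Ptprc (CD45) is a phosphatase on the surface of nearly all leukocytes, Lyz2 is the lysozyme of macrophages and granulocytes, Cd4 is the coreceptor of helper T cells, found in the rat on macrophages as well, and Cd68 is a lysosomal membrane protein most abundant in macrophages.

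The reads counted on genes numbered from 20975027 to 27246502 per library. Counts were divided by library size and edgeR's TMM factor, and the results are called normalized counts. Where none of a clone's libraries held more than 3 reads of a gene, that gene is described as at the limit of detection in the clone. This limit corresponds to 2.54 to 3.49 normalized counts and, like the intervals below, covers counting error only. Differences were tested over the 13726 genes that passed a filter on low counts, with the quasi-likelihood test of edgeR. DE genes were those with a Benjamini-Hochberg adj. p below 0.01 whose log2 FC was above 2 or below −2. At these thresholds 4.84% of the tested genes were higher in hrPC12 and 5.46% were lower, 10.3% in all. The 4 picked members are among them by the way they were chosen, and nothing is read from that. The Rest gene itself had 43.0 and 132 normalized counts in wtPC12 and 964 and 915 in hrPC12, and did not pass the thresholds (edgeR adjusted p = 0.0115). The chromaffin genes fixed as a check of the tissue were present in wtPC12, where Th, the rate-limiting enzyme of catecholamine synthesis, had 167885 ± 49564 normalized counts (SD, n = 2). Of the 8 chromaffin genes tested, 6 were lower in hrPC12 and none was higher. Th fell to 19865 ± 1606 (SD, n = 2), and the granule proteins Chgb and Scg2 had log2 FC of −10.22 and −10.20 (edgeR adjusted p = 0.00126 and 0.000916). Fewer cells that express a gene and less of its RNA per cell cannot be told apart in such bulk samples.

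Because the 4 picked genes differ between the clones, the stretch before the start of each is printed below, with that of Tlr2, which had no reads in any library. The sequences are the 250 bases upstream of the start in RefSeq's table for the rat assembly GRCr8, a later build than the rn4 used for the counts. They are written 5′ to 3′ on the strand of the gene, and capitals mark motif matches.
Gzmb (chr15:34462470-34462719, minus strand): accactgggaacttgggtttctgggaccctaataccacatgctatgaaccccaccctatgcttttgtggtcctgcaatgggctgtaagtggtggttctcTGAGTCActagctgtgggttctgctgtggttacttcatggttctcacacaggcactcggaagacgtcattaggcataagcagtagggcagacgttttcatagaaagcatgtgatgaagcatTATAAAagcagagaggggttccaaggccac
Mpeg1 (chr1:218876644-218876893, plus strand): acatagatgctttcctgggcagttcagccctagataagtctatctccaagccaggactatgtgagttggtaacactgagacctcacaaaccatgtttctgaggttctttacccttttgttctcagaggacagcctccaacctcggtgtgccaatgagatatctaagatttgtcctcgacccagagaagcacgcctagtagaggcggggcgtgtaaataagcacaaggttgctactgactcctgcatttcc
Cd14 (chr18:28611159-28611408, minus strand): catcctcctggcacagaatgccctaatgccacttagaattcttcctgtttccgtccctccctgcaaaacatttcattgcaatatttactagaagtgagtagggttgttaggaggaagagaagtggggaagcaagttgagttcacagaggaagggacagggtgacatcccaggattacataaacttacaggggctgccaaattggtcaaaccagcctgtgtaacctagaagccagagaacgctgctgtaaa
Coro1a (chr1:190731104-190731353, minus strand): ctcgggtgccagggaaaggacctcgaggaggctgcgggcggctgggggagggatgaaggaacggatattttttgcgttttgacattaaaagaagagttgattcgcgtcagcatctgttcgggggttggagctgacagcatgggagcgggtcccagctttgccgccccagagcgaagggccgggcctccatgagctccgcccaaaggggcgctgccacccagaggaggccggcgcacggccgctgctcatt
Tlr2 (chr2:171504558-171504807, minus strand): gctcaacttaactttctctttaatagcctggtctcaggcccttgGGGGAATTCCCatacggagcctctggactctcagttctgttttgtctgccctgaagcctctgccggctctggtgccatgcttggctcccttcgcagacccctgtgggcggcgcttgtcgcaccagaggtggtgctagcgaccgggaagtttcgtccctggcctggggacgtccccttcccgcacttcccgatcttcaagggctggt
A promoter of 300 bases, 250 before and 50 after the start, was given for all members except Cd4. The motifs sought on both strands were AP-1 (TGANTCA), the TATA box (TATAAA), PU.1 (GAGGAAGT), the core of the interferon-stimulated element, CRE (TGACGTCA) and the kappaB consensus. The Gzmb stretch held an AP-1 match at position −151, counted back from the start, and a TATA box at −30. An AP-1 match is found in 7.33% and a TATA box in 14.2% of the 33469 promoters of the table, anywhere in the 300 bases and on either strand. In a narrow window around −30 and on the strand of the gene, TATAAA is rarer. It is found there in 1.4% of promoters of plus strand genes and 1.35% of those of minus strand genes. AP-1 was also matched in the promoter of Cd68, at −205 and −80, and each of these matches reads on both strands. The Tlr2 stretch held overlapping kappaB matches that begin at −206 and −205, and kappaB is matched in 4.18% of promoters. None of these motifs was found in the windows of Mpeg1, Cd14, Coro1a, Tlr4, Ptprc and Lyz2. PU.1, the interferon element and CRE, matched in 2.42%, 3.92% and 1.83% of promoters, were found in no member. A match of letters does not show that a factor binds.

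The members fell into 3 kinds. Gzmb, Mpeg1 and Cd14 were close to absent from wtPC12 and well covered in hrPC12, and Cd68 was read in both clones with more in hrPC12. Coro1a went the other way. Tlr2, Tlr4, Ptprc, Cd4 and Lyz2 had at most 3 reads in every library of either clone. For these 5 genes the counts therefore do not show expression at this depth.

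**Figure D1:**
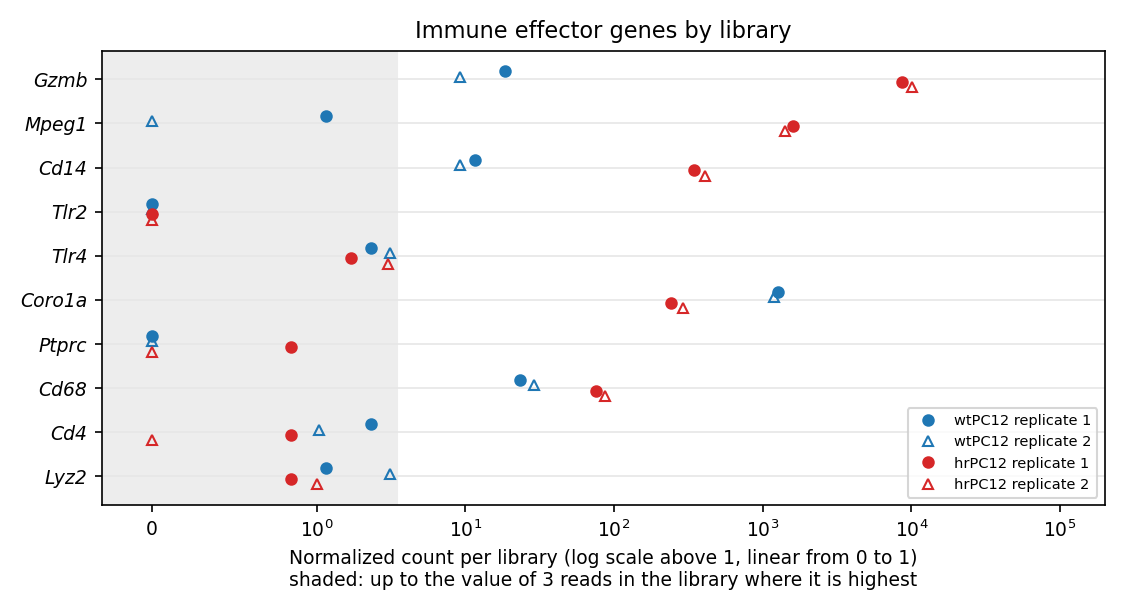
Normalized counts of the 10 genes (horizontal axis, logarithmic above 1 and linear from 0 to 1) in each of the 4 libraries, with wtPC12 in blue and hrPC12 in red. The shaded range is about the value of 3 reads, and Tlr2, Tlr4, Ptprc, Cd4 and Lyz2 lie within it in all libraries, while Gzmb, Mpeg1 and Cd14 reach 346 or more in hrPC12.

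Gzmb had 16 and 9 reads in wtPC12 and 10192 and 10002 reads in hrPC12. The 95% exact Poisson intervals of the wtPC12 counts run from 9.15 to 26.0 and from 4.12 to 17.1. The mean normalized count was 13.9 ± 6.61 in wtPC12 and 9374 ± 1055 in hrPC12 (SD, n = 2 each). The fitted log2 FC, hrPC12 over wtPC12, was 9.40 (SE 0.38), or 675-fold. Both hrPC12 libraries lay above both wtPC12 libraries, as they did for 37.9% of the 13726 genes tested, and the level left in wtPC12 was 0.149% of that in hrPC12. Within hrPC12 the Gzmb count exceeded that of 98.0% of the genes with reads, without correction for gene length. The log2 FC lay between 8.97 and 9.94 with each library left out in turn.

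Mpeg1 had 1 and 0 reads in wtPC12 and 1892 and 1396 in hrPC12. As wtPC12 was at the limit of detection, only a bound can be given, and hrPC12 held at least 458-fold more Mpeg1, with an average of 1507 ± 134 normalized counts (SD, n = 2). This bound lay between 429 and 477 with each library left out. Both hrPC12 libraries held the gene at a similar level, and a single read in wtPC12 does not separate it from absence.

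Among the genes that lie beside these loci in the RefSeq order of GRCr8, genes past the thresholds in the direction of the member were found beside Gzmb only. Of the 10 genes with counts on either side of Gzmb, 8 were tested, and Gzmc and Mcpt8l2 were higher in hrPC12. Over all genes tested 4.84% were higher. Gzmc, the nearest neighbour, had 1 and 0 reads in wtPC12 and 170 and 172 in hrPC12, at least 48.3-fold higher (edgeR adjusted p = 0.00203). Mcpt8l2, a gene of the mast cell protease family, had 0 and 1 reads in wtPC12 and 38 and 28 in hrPC12, at least 9.19-fold higher. Mcpt10 had 26 and 19 reads in hrPC12 and none in wtPC12, and was not tested because of that. Granzyme and mast cell protease genes are close paralogs, and the counting kept uniquely placed reads, so how reads were split between Gzmb, Gzmc and the Mcpt genes is uncertain. Gzmf had no more than 1 read in any library. On the other side of Gzmb the unrelated genes Rnf17, Cenpj, Pspc1, Cryl1, Ift88 and Xpo4 were tested. Their log2 FC were 1.38, 0.23, −0.64, −1.35, −0.83 and 0.43, and none passed the thresholds. None of the 13 tested neighbours of Mpeg1 passed in either direction, and none of the 17 of Coro1a. All tested neighbours of Coro1a except Sult1a1 and Bola2 had a negative log2 FC, however. Cln3, Nupr1 and Ypel3 fell short on log2 FC alone, at −1.87, −1.79 and −1.84 (edgeR adjusted p = 0.00574, 0.00819 and 0.00378). Whether these neighbours share the change of Coro1a was not tested. Of the 17 tested neighbours of Cd14, none was higher and 5 were lower, the opposite of Cd14, beside 5.46% lower over all genes tested. These were Psd2, Nrg2 and the protocadherin genes Pcdhb3, Pcdhb4 and Pcdhb5, which lie side by side and are not separate events.

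Gzmb was read without perforin and without the protease that activates granzymes, while several genes of granule release were read. Prf1, Gzma and Gzmk had no read in any library, and Gzmm had 1 and 2 reads in wtPC12 and 6 and 4 in hrPC12. Ctsc, the protease that activates granzyme precursors, had 1 read in hrPC12 replicate 1 and 0 elsewhere, and Nkg7 the same. Srgn, whose product serglycin packs granzymes in the granule, had 48 and 71 reads in wtPC12 and 58 and 74 in hrPC12, and the clones overlapped (log2 FC −0.06, SE 0.40, edgeR adjusted p = 0.913).

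Of the 15 granule genes found besides the members, 8 were tested, 3 of which were higher (37.5%, against 4.84% of all genes tested) and 1 lower (12.5%, against 5.46%), and 6 of the 15 had at most 3 reads in every library. The higher genes were Gzmc, Serpinb9 and Stx11. Serpinb9, which codes for an intracellular inhibitor of granzyme B, had 89 and 97 reads in wtPC12 and 752 and 726 in hrPC12, a log2 FC of 2.75 (SE 0.26, edgeR adjusted p = 0.00222). Stx11, a syntaxin of granule release in lymphocytes, had 3 and 4 reads in wtPC12 and 145 and 140 in hrPC12, a log2 FC of 5.07 (SE 0.44, edgeR adjusted p = 0.00167). Rab27a, a small GTPase that docks granules in lymphocytes and dense-core vesicles in neuroendocrine cells, had 2814 ± 213 normalized counts in wtPC12 and 569 ± 4.7 in hrPC12 (SD, n = 2 each) and fell by 2.31 on the log2 scale (SE 0.19, edgeR adjusted p = 0.00135). Stxbp2, the partner of Stx11, had a log2 FC of −0.54 and did not pass (edgeR adjusted p = 0.0651). Unc13d, which primes granules for fusion, had 4 and 7 reads in wtPC12 and 42 and 25 in hrPC12 and did not pass (edgeR adjusted p = 0.0273). Without wtPC12 replicate 2 no gene of any list and none of the 13726 genes passed both thresholds. The lowest edgeR adj. p was then 0.013, and 6942 genes had an unadjusted p under 0.05.

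**Figure D2:**
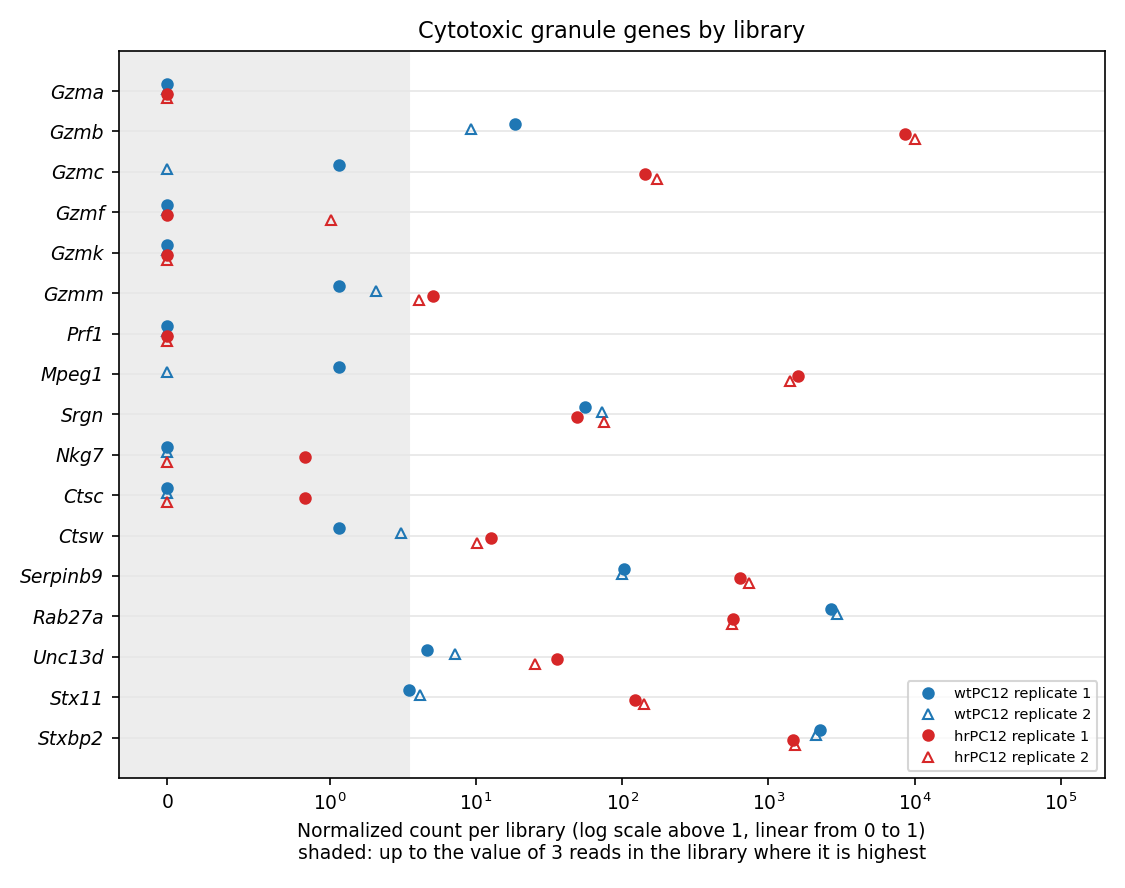
Normalized counts of the granule genes (horizontal axis, logarithmic above 1 and linear from 0 to 1) in each library, with wtPC12 in blue and hrPC12 in red. Gzmb, Gzmc, Mpeg1, Serpinb9 and Stx11 lie to the right in hrPC12, Rab27a to the left, and Prf1, Gzma and Gzmk lie at 0 in all 4 libraries.

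Cd14 had 10 and 9 reads in wtPC12 and 409 and 407 in hrPC12. The mean normalized count was 10.5 ± 1.67 in wtPC12 and 379 ± 46.4 in hrPC12 (SD, n = 2 each), and the log2 FC was 5.17 (SE 0.36), or 36.0-fold. Both hrPC12 libraries lay above both wtPC12 libraries, as for 37.9% of tested genes, and wtPC12 kept 2.76% of the hrPC12 level. With each library left out the log2 FC lay between 4.99 and 5.31.

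Tlr2 and Tlr4, the receptors described above as working with Cd14, were at or below the limit of detection. Tlr4 had 2 and 3 reads in wtPC12 and 2 and 3 in hrPC12, and Tlr2 had none in any library, which allows up to 3 reads per library. Ly96, the partner of Tlr4 in binding lipopolysaccharide, had 0 reads in both wtPC12 libraries and 2 and 3 in hrPC12. Lbp, which carries lipopolysaccharide to Cd14, had 0 and 0 reads in wtPC12 and 6 and 2 in hrPC12. No difference of Tlr2 or Tlr4 between the clones was detectable at this depth.

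Other Toll-like receptors were read. Tlr3, a receptor of double-stranded RNA in endosomes, had 1 and 1 reads in wtPC12 and 2757 and 1188 in hrPC12, at least 537-fold higher (edgeR adjusted p = 0.000699). The hrPC12 libraries differed from each other here, with replicate 1 at 1.94 times replicate 2 in normalized counts, and the bound was 365 without replicate 1. A ratio over 1.5 between these libraries was found in 20.4% of the 11976 tested genes with at least 20 reads in both. Tlr6, which pairs with Tlr2 on lipopeptides, had 1 and 3 reads in wtPC12 and 58 and 55 in hrPC12, at least 15.9-fold higher (edgeR adjusted p = 0.00569). It did not pass without wtPC12 replicate 1. Tlr1 had 0 and 0 reads in wtPC12 and 15 and 8 in hrPC12 and was not tested. Of the 9 receptor genes of the family found besides Tlr2 and Tlr4, 5 had at most 3 reads in every library, and 4 of these had no read at all.

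Of the 46 genes of receptors, adaptors and NF-kB signalling found besides the members, 34 were tested, 3 were higher (8.82%) and none was lower, beside the 4.84% and 5.46% over all genes. In either direction 24 of the 34 (70.6%) had an unadjusted p under 0.05, beside 46.3% of all genes tested. Their median log2 FC was 0.59, against 0.06 over all genes tested. The genes that rose were Tlr3, Tlr6 and Nod1, a cytosolic sensor of bacterial peptidoglycan with 48 and 68 reads in wtPC12 and 818 and 730 in hrPC12 (log2 FC 3.50, SE 0.29, edgeR adjusted p = 0.00138). The adaptor gene Myd88 was read in both clones, with 851 ± 101 normalized counts in wtPC12 and 497 ± 32.5 in hrPC12 (SD, n = 2 each), and its log2 FC of −0.78 did not pass (edgeR adjusted p = 0.0527). The most abundant genes of the list were the chaperone genes Hsp90b1 and Cnpy3 and the adaptor gene Tollip, with log2 FC of 1.11, −0.03 and −0.71, none past the thresholds. None of the 16 tested genes of NF-kB signalling passed, and Rela, its main activating subunit, had a log2 FC of −0.53. Nfkb1 and Nfkb2 had log2 FC of 1.57 and 1.85, and their hrPC12 libraries differed by 1.81 and 1.79 times. In this list hrPC12 replicate 1 was also over 1.5 times replicate 2 for Tlr3, Irak1, Irak3, Irak4, Unc93b1, Chuk, Ikbkg and Irf3. All of these had a positive log2 FC, and Sarm1, with a negative one, had such a ratio too. With all of these set aside, the middle gene of the other tested genes in the list was Irak2, with a log2 FC of 0.02. The raised median of the list thus rests on genes whose hrPC12 libraries disagree. Irf7, an interferon regulatory factor, had 232 and 171 reads in wtPC12 and 1028 and 893 in hrPC12. Its log2 FC of 1.99 lay just short of the threshold (edgeR adjusted p = 0.00869). Sarm1, a member of the adaptor family, had a log2 FC of −2.25 and did not pass (edgeR adjusted p = 0.013), but it did with DESeq2 and when RLE factors replaced TMM.

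**Figure D3:**
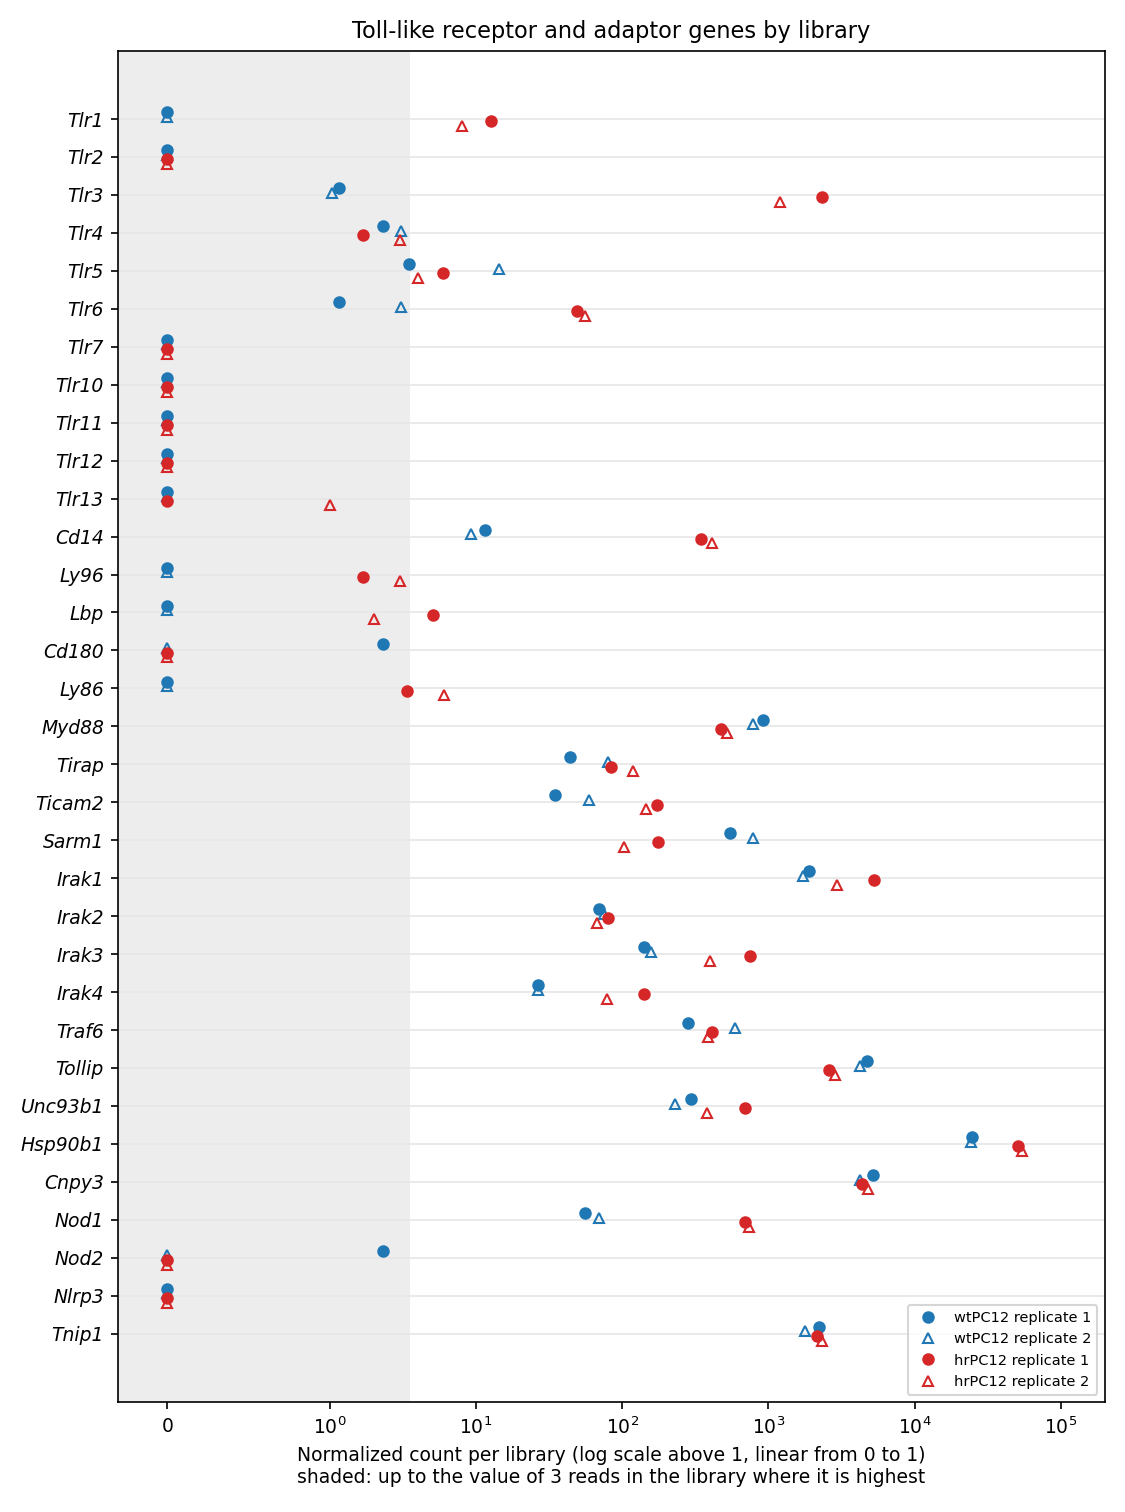
Normalized counts of Toll-like receptors, other sensors and their adaptors (horizontal axis, logarithmic above 1 and linear from 0 to 1) in each library, with wtPC12 in blue and hrPC12 in red. Cd14, Tlr3, Tlr6 and Nod1 lie to the right in hrPC12, Tlr2 lies at 0 throughout and Tlr4 within the shaded range, while adaptors such as Myd88 and Tollip are read in both clones.

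Products of activated Toll-like receptor signalling were read in part. Tnf, Il1b, Il6, Ccl2 and Nos2 had at most 1 read in any library. Of the 24 genes of this list 14 had at most 3 reads in every library, as did 39.9% of all 25810 genes. The other 10 had more in at least 1. Cxcl10, an interferon-induced chemokine, had 161 and 46 reads in wtPC12 and 273 and 295 in hrPC12 and did not pass (edgeR adjusted p = 0.219), and Cxcl2 had none in wtPC12 and 15 and 11 in hrPC12. Of the 24 genes 6 were tested, of which 2 were higher (33.3%) and 1 was lower (16.7%) in hrPC12. Over all genes tested these shares were 4.84% and 5.46%. Csf1, the growth factor of macrophages, had 125 and 159 reads in wtPC12 and 2670 and 2566 in hrPC12, a log2 FC of 3.97 (SE 0.23, edgeR adjusted p = 0.000615). The adhesion molecule Icam1 had 228 and 167 reads in wtPC12 and 1023 and 937 in hrPC12, a log2 FC of 2.05, close to the threshold (SE 0.30, edgeR adjusted p = 0.00827). Icam1 did not pass without hrPC12 replicate 2, where its log2 FC was 1.94, or without wtPC12 replicate 2, where it was 1.77. Il18, a cytokine of the interleukin 1 family, had 558 ± 210 normalized counts in wtPC12 against 89.7 ± 4.77 in hrPC12 (SD, n = 2 each) and was lower there (log2 FC −2.63, SE 0.37, edgeR adjusted p = 0.00719). Ccl7, a chemokine, had 19 and 18 reads in wtPC12 and 1 and 0 in hrPC12, and did not pass (edgeR adjusted p = 0.012).

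Coro1a had 1088 and 1151 reads in wtPC12 and 287 in each hrPC12 library. The mean normalized count was 1226 ± 56.6 in wtPC12 and 267 ± 33.5 in hrPC12 (SD, n = 2 each), with a log2 FC of −2.20 (SE 0.23), just past the threshold of −2. Both hrPC12 libraries lay below both wtPC12 libraries, as for 35.6% of tested genes. The log2 FC lay between −2.38 and −2.08 with each library left out. It is the member whose direction opposes that of Gzmb, Mpeg1 and Cd14.

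Of the 6 other coronin genes, all tested, 1 was higher (16.7%) and none was lower in hrPC12. Over all genes tested 4.84% were higher and 5.46% lower. Coro6 had 217 ± 44.8 normalized counts in wtPC12 and 1395 ± 562 in hrPC12 (SD, n = 2 each; log2 FC 2.69, SE 0.38, edgeR adjusted p = 0.00717). Its hrPC12 libraries differed by 1.80 times, and it did not pass without wtPC12 replicate 1, where the log2 FC was 2.45 (edgeR adjusted p = 0.0225). Coro2b, a coronin of neurons, had a log2 FC of −1.16 and Coro2a one of −1.13, neither past the thresholds. The widely expressed Coro1b, Coro1c and Coro7 had log2 FC of −0.48, −0.10 and −0.25. Whether the decrease of Coro1a differs from those of Coro2a and Coro2b was not tested.

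Of the checks for leukocytes, Ptprc, Lyz2 and Cd4 were at or near 0 in both clones. Ptprc had 0 and 0 reads in wtPC12 and 1 and 0 in hrPC12. Lyz2 had 1 and 3 reads in wtPC12 and 1 in each hrPC12 library, and Cd4 had 2 and 1 in wtPC12 and 1 and 0 in hrPC12. None of these reaches more than 3 reads in a library, so no fold is given.

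Cd68 was the check that was read. It had 20 and 28 reads in wtPC12 and 89 and 86 in hrPC12, and the clones did not overlap, as was the case for 73.5% of all tested genes. The normalized count was 26.1 ± 3.94 in wtPC12 and 81.2 ± 8.26 in hrPC12 (SD, n = 2 each). Its log2 FC was 1.63 (SE 0.37, edgeR adjusted p = 0.0283), short of both thresholds, and 32.4% of tested genes had an adj. p under 0.05.

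**Figure D4:**
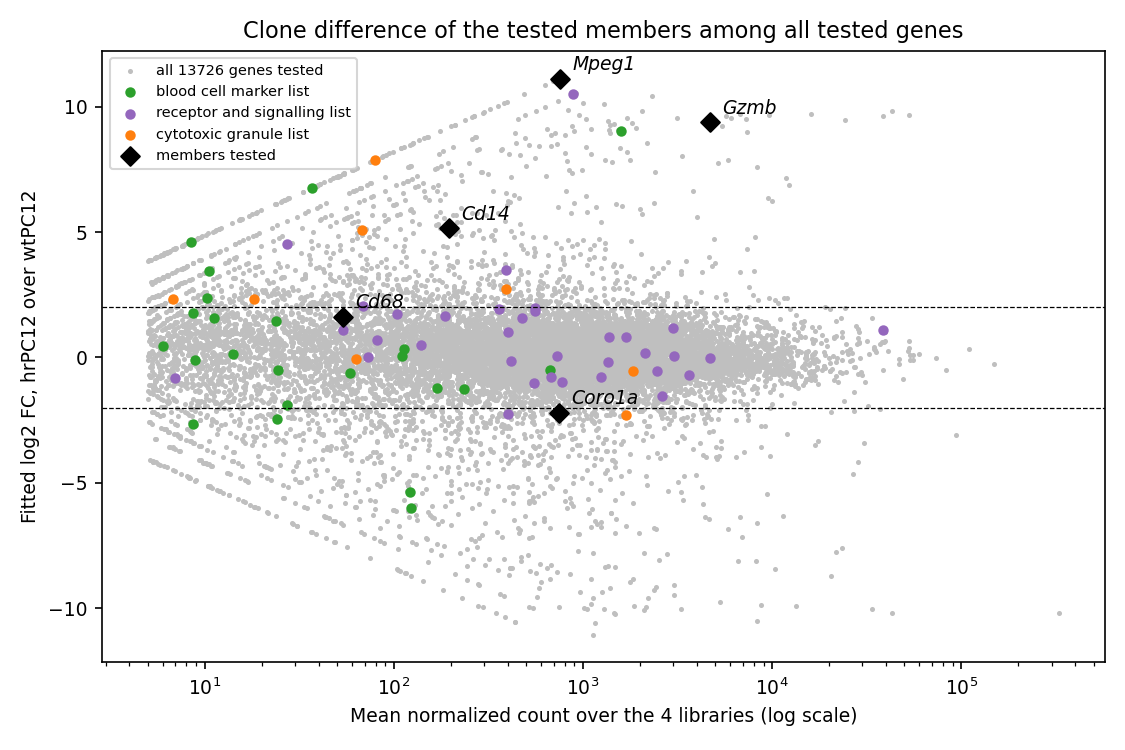
Fitted log2 FC of hrPC12 over wtPC12 (vertical axis) against the mean normalized count over the 4 libraries (horizontal axis, logarithmic) for the 13726 genes tested, with the 5 tested members as black diamonds, 3 lists in colour and dashed lines at a log2 FC of −2 and 2. Gzmb and Cd14 lie above the upper line and Coro1a just below the lower line, Cd68 lies between the lines, and the fitted position of Mpeg1 depends on the prior count because wtPC12 is at the limit of detection.

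A wider set of blood cell markers was followed as a further check of leukocyte transcripts. Of 94 markers found besides the members, 59 (62.8%) had at most 3 reads in every library, beside 39.9% of all 25810 genes. No read at all was found for 30 of them (31.9%), close to the 28.6% over all genes. Among 16 other macrophage and monocyte markers, 13 did not exceed 3 reads, and Cd163, C1qa, C1qb, C1qc and Cd86 had none. Csf1r, the receptor of Csf1, had at most 4 reads and Tyrobp at most 1. Of 22 other T and NK cell markers 14 did not exceed 3 reads, and Cd3d, Cd8a, Ncr1 and Klrb1 had none. Others of this set were read, as Lck, a kinase of T cell receptor signalling, had 91 and 92 reads in wtPC12 and 177 and 101 in hrPC12, and the adaptor gene Lat had 58 and 73 in wtPC12 and 56 and 45 in hrPC12. Cd27 had 15 and 66 reads in wtPC12 and 13 and 12 in hrPC12, and Cd2 had 1 and 0 in wtPC12 and 16 and 19 in hrPC12. None of these 4 genes passed. Of the 21 other pan-leukocyte markers only 9 did not exceed 3 reads. The integrin gene Itgax had 0 reads in both wtPC12 libraries and 25 and 15 in hrPC12, Rac2 had 0 in wtPC12 and 11 and 8 in hrPC12, and Was had 2 and 0 in wtPC12 and 8 in each hrPC12 library. Other markers went the other way. Itgb2 had 18 and 9 reads in wtPC12 and 3 and 2 in hrPC12, and did not pass. Fermt3 had 237 and 190 reads in wtPC12 and 109 and 108 in hrPC12, and did not pass either. Of the B cell and mast cell markers, Cd22 had 30 and 29 reads in wtPC12 and Tpsab1 had 20 and 26. Neither had a read in hrPC12, and they were not tested because of that. Neutrophil granule genes such as Mpo, Elane, S100a8 and S100a9 had no read in any library. Spi1, which codes for PU.1, the factor that directs myeloid genes, had 3 and 3 reads in wtPC12 and 24 and 14 in hrPC12, and did not pass (edgeR adjusted p = 0.0338).

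**Figure D5:**
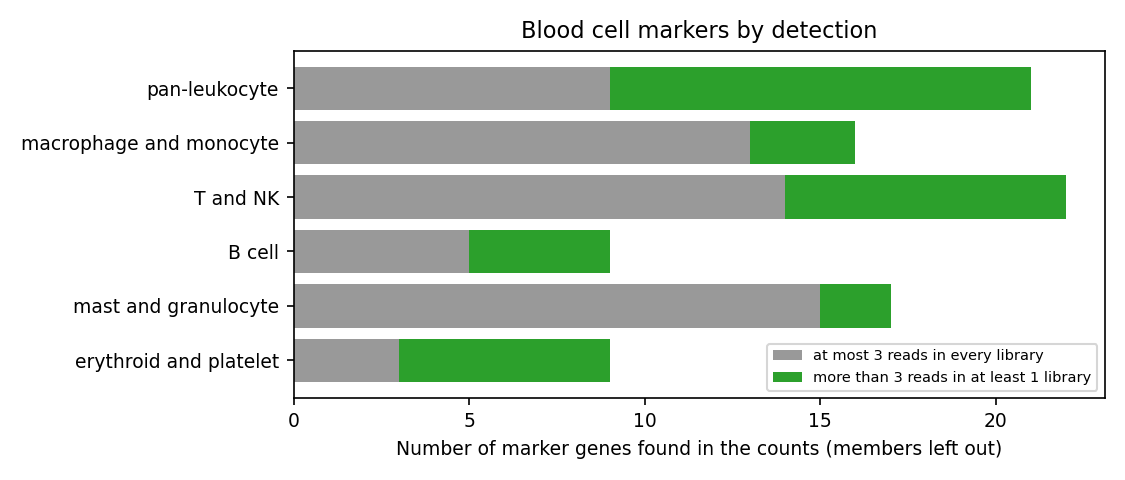
Number of blood cell marker genes found in the counts, by cell type (vertical axis), split into those with at most 3 reads in every library (grey) and those with more in at least 1 library (green), with the 10 members left out. Of 16 macrophage and monocyte markers 13 are grey, of 21 pan-leukocyte markers 9, of 17 mast cell and granulocyte markers 15, and of 9 erythroid and platelet markers 3.

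Some genes of the marker set differed between the clones. Of the 94 markers 23 were tested, with 2 higher (8.70%) and 2 lower (8.70%) in hrPC12. Over all genes tested these shares were 4.84% and 5.46%, so the set as a whole is not set apart by 2 genes each way. Arhgdib, a gene abundant in blood cells, had 3 and 8 reads in wtPC12 and 3558 and 3284 in hrPC12, a log2 FC of 9.02 (SE 0.39, edgeR adjusted p = 0.000328). Blnk, a B cell adaptor, had 1 and 0 reads in wtPC12 and 98 and 62 in hrPC12, at least 22.1-fold higher (edgeR adjusted p = 0.00436). In the other direction, Lcp1, the actin bundler L-plastin, had 219 and 224 reads in wtPC12 and 4 and 4 in hrPC12, and the adaptor gene Lcp2 had 220 and 212 in wtPC12 and 6 and 6 in hrPC12. Their log2 FC were −5.99 and −5.39 (edgeR adjusted p = 0.000904 and 0.00109). The phosphatase gene Ptpn6 and the erythropoietin receptor gene Epor, among the most abundant of the set, had log2 FC of −0.51 and −1.26 and did not pass. The summed normalized count of the 94 markers was 2241 to 2567 in wtPC12 and 4453 to 4736 in hrPC12, and without Arhgdib 2233 to 2564 and 1414 to 1441. The direction of the sum thus rests on that gene, a gene picked out with its values known, and the part of these markers in the counts of Gzmb, Mpeg1 and Cd14 was not tested.

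The genes with the profile over the 4 libraries nearest to that of each picked member were sought among the 11317 other genes whose higher clone averaged 100 normalized counts or more. Distances are Euclidean, on log2(normalized count + 1) centred per gene. With 4 libraries in 2 groups they mostly reflect the size of the clone difference, and they say nothing of shared control. Nearest to Gzmb were Schip1, Klhl13 and Vim, at 0.169, 0.177 and 0.363. Nearest to Mpeg1 were Klhl13, Col3a1 and LOC311134, from 0.539 to 0.663. Nearest to Cd14 were Adipoq, Nell2 and Tnni1, from 0.177 to 0.205, and nearest to Coro1a were Plk5, Tmem51 and Pcdh24, from 0.0315 to 0.0944. None of these genes is in the lists of immune genes used here.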

How the data were processed

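RNA of wtPC12 and hrPC12 was sequenced in 2 libraries each. The authors aligned the reads to rn4 with TopHat2 2.0.4 and counted them per gene with HTSeq 0.5.3, per the labels, and deposited raw counts. The strand setting and gene annotation are not given in the sources used here, so overlapping and antisense genes may share reads. A table of the authors' DESeq comparison (pooled means, fold changes and p values) was not used. Reads outside genes (49.9% to 55.9% of those accounted for) and reads without a unique position (5.85% to 9.13%) were left out of library sizes. Reads that fell in several genes were left out too. They numbered 236166 in hrPC12 replicate 1 and 55908 to 78907 in the other libraries.

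Computations used R 4.3.3, edgeR 4.0.16, limma 3.58.1 and DESeq2 1.42.0. Genes entered the test with reads in both clones and a mean normalized count of 5 or more, which left 13726 of 18416 genes with reads and 5 of the 10 members. The test was edgeR's quasi-likelihood test (TMM factors, legacy option on) with Benjamini-Hochberg adjustment. With 2 libraries per clone a permutation test of 1 gene cannot give a p under 0.333. On simulated counts of 13615 genes, edgeR and DESeq2 each recovered 200 of 200 changed genes, with 0 false calls. The changed genes were well covered and their changes lay well past the log2 FC threshold, while all other genes were left unchanged. Such recovery was nearly assured, and it does not carry over to genes with few reads or a log2 FC near the threshold. How often either tool makes false calls on the counts of these libraries was not tested. Replicates of a clone differed by more than sampling noise (chi-square per degree of freedom 82.4 and 59.4). Alternatives were other normalizations, filters, tools and thresholds, and each library left out in turn. Members and lists were chosen with earlier results of these data known. Genes named are the members, Rest, list genes past both thresholds or among the 3 most abundant of their list, paralogs of members and nearest profiles. Other genes were named after their values were seen, for their role beside a member. Tab1, Tab2, Tlr13 and Pax5 were matched through RefSeq synonyms, and symbols not found were not analysed here.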

Additional observations from a re-analysis of the deposited data

How the results depend on the processing

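The log2 FC of Gzmb, Mpeg1, Cd14 and Coro1a kept their direction under every alternative. With each library left out they lay between 8.97 and 9.94, 10.2 and 13.6, 4.99 and 5.31, and −2.38 and −2.08, and without wtPC12 replicate 2 none passed the thresholds. Over all genes, 1127 were higher when every gene with at least 1 read was tested and 1088 at an adj. p under 0.05. With each library left out 0 to 957 genes were higher and 0 to 920 lower. In the same way 0 to 5 genes of the receptor list were higher and 0 to 1 lower, 0 to 2 inflammatory genes were higher and 0 to 2 lower, 0 to 3 granule genes were higher and 0 to 1 lower, 0 to 1 coronin genes were higher, 0 to 4 blood cell markers were higher and 0 to 2 lower, and 0 to 6 chromaffin genes were lower. In the receptor list 1 gene, Sarm1, was lower with DESeq2, RLE factors, every gene with at least 1 read, library totals alone and an adj. p under 0.05. In the inflammatory list 2 genes were lower, with Ccl7 gained, with filterByExpr, RLE factors, library totals, every gene with at least 1 read, the legacy option off and an adj. p under 0.05. Of the blood cell markers 5 were higher at an adj. p under 0.05, and 5 were lower with every gene with at least 1 read, 4 with filterByExpr and 4 at an adj. p under 0.05. Rest passed with a log2 FC of 3.38 (RLE factors), 3.46 (library totals), 3.42 (every gene with at least 1 read), 3.39 (DESeq2), 3.41 (legacy option off) and 3.42 (adj. p under 0.05), and lay between 2.80 and 4.44 with each library left out. The cause of these changes was not tested. No paired analysis was possible because the labels give the clones fewer than 2 shared replicate numbers. Counts of up to 3 reads limit what can be said of Tlr2, Tlr4, Ptprc, Cd4 and Lyz2.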
